A study of Mus musculus with 8 samples.

Results

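The expression of 8 genes, the receptors Ppara, Ppard and Rxra and the fatty-acid-induced genes Angptl4, Acot1, Acot2, Ucp2 and Ucp3, was examined in mouse tendon stem cells (TSCs) cultured with excess glucose and fat. They were taken by symbol from the table of expression values, which held 8 of 8 of them among 19301 genes. mRNA of primary TSCs was sequenced in 8 libraries, 4 biological replicates in each of 2 groups. The low glucose (LG) group received 5.5 mM glucose and the vehicle DMSO, and the high fat, high glucose (HFHG) group received a higher glucose concentration together with 300 µM palmitic acid, a saturated fatty acid, both for 4 days. The cells came from the digested patellar tendon, and the mice of the study were C57BL/6J. Because glucose and palmitic acid were changed together, their separate parts cannot be told apart. Expression was given as FPKM, the fragments of a gene scaled to the length of the gene and to the total of the library. The library totals, recovered from the FPKM values, were 34308108 to 37362725 reads.

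Peroxisome proliferator-activated receptors (PPARs) are nuclear receptors that bind fatty acids and their derivatives. They act as heterodimers with a retinoid X receptor (RXR) on direct repeats of a hexamer in DNA, and their targets include genes of fatty acid oxidation, storage and release. Ppara is best known from liver and muscle, Ppard is expressed widely, and Pparg is best known from adipocytes.

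In short, Angptl4 and Ucp2 were about 3-fold higher in HFHG than in LG, and Acot2 was lower. The receptors Rxra and Ppard differed little, Ppara was low, and Ucp3 was close to the limit of detection. limma was fitted on log2(FPKM + 0.1) to genes that reached 0.5 FPKM in 4 or more of the 8 libraries, and 6 of the 8 genes passed this filter. Differences are means of HFHG minus means of LG on that scale, where the added 0.1 shrinks the differences of genes with low FPKM. At an adjusted p below 0.05, 5 of the 6 were called, against a background of 64.8% of the 11710 tested genes. Of the 6 genes, 4 were called higher (background 34.0%) and 1 was called lower (background 30.8%). Past 2-fold with an unadjusted p below 0.05, 2 of the 6 were higher (background 3.68%) and 0 were lower (background 1.65%). With a pseudocount of 1 in place of 0.1 these backgrounds were smaller, with 197 genes higher and 106 lower, against 431 and 193. The values of the groups did not overlap in 4 of the 6 (background 59.2%). The median log2 fold change was 0.33 for the 6 genes and 0.02 for all tested genes. LG replicate 4 stood apart from the other LG libraries on the principal component with the second most variance (4.18%, against 81.0% on the one that separated HFHG from LG), so values without this library are given beside those of the 6 tested genes.

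**Figure D1:**
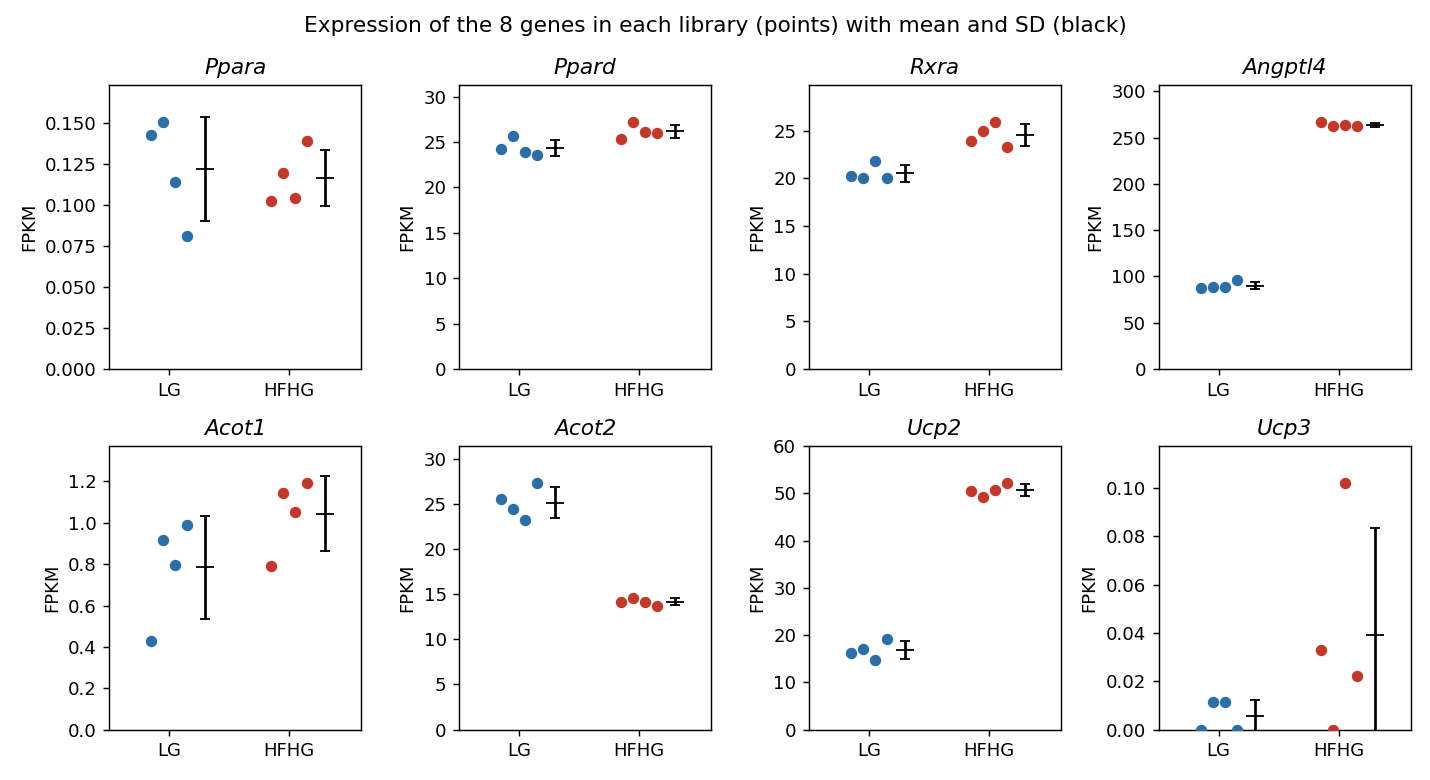
FPKM of each of the 8 genes (vertical axes, each starting at 0) in the LG and HFHG libraries, with 1 point per library and the mean and SD in black. Angptl4 and Ucp2 lie higher and Acot2 lies lower in HFHG without overlap, whereas the points of Ppara, Ppard, Acot1 and Ucp3 overlap between the groups.

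Among the receptors, Ppara was low and below the filter, though reads were found in every library. Its FPKM in replicates 1 to 4 was 0.103, 0.119, 0.104 and 0.139 for HFHG and 0.142, 0.150, 0.114 and 0.0808 for LG. The groups overlapped, and both the highest and the lowest value were in LG. These values came from 30 to 57 reads per library over a gene length of 10433 bases. The mean was 0.116 ± 0.0170 FPKM in HFHG and 0.122 ± 0.0316 in LG (SD, n = 4 each), with p = 0.743 in an exact two-sided permutation test. Pooled over the libraries, the ratio of HFHG to LG reads was 0.953, with a 95% counting interval of 0.770 to 1.18, which covers counting error only. Pparg, which is not among the 8 genes, was also below the filter, with means of 0.305 ± 0.0993 FPKM in HFHG and 0.319 ± 0.0216 in LG (SD, n = 4 each).

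Ppard supplied nearly all of the PPAR mRNA. Its FPKM in replicates 1 to 4 was 25.4, 27.2, 26.1 and 25.9 for HFHG and 24.2, 25.6, 23.9 and 23.5 for LG. The groups overlapped, because LG replicate 2 was above HFHG replicate 1. On the FPKM scale, which divides by the gene length of the authors' annotation, Ppard made up 98.1% to 99.0% of the summed level of Ppara, Ppard and Pparg in HFHG and 98.1% to 98.4% in LG. The length of Ppara was 10433 bases there and 3413 in its longest coding transcript of GENCODE M21, and with the shorter length the share of Ppard was 97.2% to 98.1% in HFHG and 96.9% to 97.8% in LG. The limma estimate of the log2 fold change of Ppard was 0.10 (adjusted p = 0.0251, standard error 0.0367), and the exact two-sided permutation test gave p = 0.0571. This call was lost with median-ratio scaling (adjusted p = 0.123 by limma) and in 4 of the 8 fits that left out 1 library. The adjusted p by limma was 0.0799 without HFHG replicate 2, 0.0519 without LG replicate 1, 0.0618 without LG replicate 3 and 0.0553 without LG replicate 4. Over all alternatives the log2 fold change of Ppard ran from 0.07 with median-ratio scaling to 0.16 with rescaling to the same sum, and in the 4 fits without a call it stayed between 0.08 and 0.10.

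Rxra, the RXR partner among the 8 genes, was slightly higher in HFHG. Its FPKM in replicates 1 to 4 was 24.0, 25.0, 25.9 and 23.3 for HFHG and 20.3, 20.04, 21.9 and 20.02 for LG. All HFHG values were above all LG values, and LG replicate 3 was the highest of its group. The log2 fold change by limma was 0.26 (adjusted p = 0.000195, standard error 0.0430), and it was 0.24 without LG replicate 4. Rxrb had 14.5 ± 0.402 FPKM in HFHG and 13.9 ± 0.819 in LG (SD, n = 4 each), with a limma estimate of 0.06 in log2 fold change (adjusted p = 0.306). It was called higher with rescaling to the same sum, and its estimate was less than 0.5 times as large with median-ratio scaling and without LG replicate 2. Rxrg was below the filter at 0.0559 ± 0.0481 and 0.0312 ± 0.0425 FPKM (SD, n = 4 each). By FPKM, the order of the receptors in HFHG was Ppard, Rxra, Rxrb, Pparg, Ppara and Rxrg, in which the HFHG values overlapped between Ppard and Rxra and between Ppara and Rxrg. With 3413 bases the mean level of Ppara in HFHG was 0.355, above that of Pparg, so their order depends on the length used.

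Of the targets among the 8 genes, Angptl4, which encodes a secreted inhibitor of lipoprotein lipase, had the highest level. Its FPKM in replicates 1 to 4 was 267, 263, 263 and 263 for HFHG and 87.7, 88.3, 88.7 and 95.6 for LG. All HFHG values were far above all LG values, and LG replicate 4 was above the other LG libraries. The mean was 264 ± 2.03 FPKM in HFHG and 90.1 ± 3.74 in LG (SD, n = 4 each), a ratio of 2.93. The log2 fold change by limma was 1.55 (adjusted p = 3.39e-13, standard error 0.0287), and it was 1.58 without LG replicate 4. By mean FPKM, Angptl4 ranked 211 of 19301 genes in HFHG and 729 in LG, and by fold change it ranked 136 of 11710. Ranks by FPKM depend on the lengths used, which for Angptl4 (1903 bases), Ucp2 (1719) and Acot1 (1559) were shorter than the longest coding transcript of GENCODE M21 (3308, 3988 and 2272 bases). On GRCm38 it lies on chromosome 17 from 33774900 to 33781575, and its NCBI gene number is 57875.

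Among the 6 tested genes of a list of angiopoietin-like and lipase genes without Angptl4, 4 were called higher (over all tested genes 34.0%) and 2 lower (30.8%). Angptl7 rose from 34.6 ± 1.16 to 95.5 ± 1.26 FPKM (SD, n = 4 each) and had a limma estimate of 1.46 in log2 fold change (adjusted p = 5.92e-13). Angptl6 fell from 7.05 ± 0.349 to 2.56 ± 0.336 FPKM (SD, n = 4 each) and had a limma estimate of -1.44 in log2 fold change (adjusted p = 1.18e-08). Angptl2 had the highest mean FPKM of this list without Angptl4, 247 ± 4.97 in HFHG and 207 ± 2.48 in LG (SD, n = 4 each). Lpl, the lipoprotein lipase gene, had 179 ± 2.91 and 148 ± 2.74 FPKM (SD, n = 4 each), a limma estimate of 0.28 in log2 fold change (adjusted p = 3.56e-07).

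Ucp2 and Ucp3 encode carriers of the mitochondrial inner membrane and are neighbours on chromosome 7. On GRCm38, Ucp3 lies from 100472991 to 100486432 and Ucp2 from 100493337 to 100499629, 6904 bases apart. The FPKM of Ucp2 in replicates 1 to 4 was 50.5, 49.3, 50.8 and 52.2 for HFHG and 16.2, 17.1, 14.8 and 19.3 for LG. The groups did not overlap, and LG replicate 4 was the highest LG library. The mean was 50.7 ± 1.22 FPKM in HFHG and 16.8 ± 1.86 in LG (SD, n = 4 each), a ratio of 3.01. The log2 fold change of 1.59 (standard error 0.0626, adjusted p = 2.70e-10 by limma) ranked 118 of 11710, and it was 1.66 without LG replicate 4. It was close to that of Angptl4, and Angptl4 had the larger rise with quantile normalization, with a pseudocount of 1 and without LG replicate 3.

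Ucp3 was almost absent beside its neighbour. Its reads in replicates 1 to 4 numbered 3, 0, 9 and 2 for HFHG and 0, 1, 1 and 0 for LG. The corresponding FPKM was 0.0328, 0, 0.102 and 0.0224 in HFHG and 0, 0.0113, 0.0115 and 0 in LG. The groups overlapped at 0, and HFHG replicate 3 held 9 of the 14 HFHG reads. Pooled over the libraries there were 14 reads in HFHG and 2 in LG, or 5 and 2 without HFHG replicate 3, and the exact two-sided permutation test on FPKM gave p = 0.171. Without HFHG replicate 2, which had 0 reads, this p was 0.0286, and without HFHG replicate 3 it was 0.371. The gene on the other side of Ucp3, C2cd3, had 1.97 ± 0.101 FPKM in HFHG and 1.89 ± 0.193 in LG (SD, n = 4 each), with a limma estimate of 0.06 in log2 fold change (adjusted p = 0.608) that changed sign with quantile normalization. Dnajb13, on the other side of Ucp2, was below the filter, at 0.0701 ± 0.0539 and 0.0486 ± 0.0656 FPKM (SD, n = 4 each).

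Promoter windows of RefSeq (GRCm38.p6), from 250 bases before to 50 bases after a gene start, were matched for 7 of the 8 genes, in 8 windows because Rxra had 2, and Angptl4 was without an entry. The windows of the neighbours Ucp2 and Ucp3 and of Acot1 and Acot2 are shown because each pair lies side by side and differed in level. All 4 are on the + strand, at chr7:100493108-100493407 for Ucp2, chr7:100472741-100473040 for Ucp3, chr12:84009252-84009551 for Acot1 and chr12:83987611-83987910 for Acot2. Capitals mark the hexamer AGGTCA, searched on both strands (TGACCT on the other).
Ucp2: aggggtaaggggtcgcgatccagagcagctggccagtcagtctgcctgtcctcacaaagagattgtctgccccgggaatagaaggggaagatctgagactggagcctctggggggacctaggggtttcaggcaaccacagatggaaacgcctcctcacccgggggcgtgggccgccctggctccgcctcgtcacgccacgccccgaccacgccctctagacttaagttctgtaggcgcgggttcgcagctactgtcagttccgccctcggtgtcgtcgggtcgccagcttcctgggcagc
Ucp3: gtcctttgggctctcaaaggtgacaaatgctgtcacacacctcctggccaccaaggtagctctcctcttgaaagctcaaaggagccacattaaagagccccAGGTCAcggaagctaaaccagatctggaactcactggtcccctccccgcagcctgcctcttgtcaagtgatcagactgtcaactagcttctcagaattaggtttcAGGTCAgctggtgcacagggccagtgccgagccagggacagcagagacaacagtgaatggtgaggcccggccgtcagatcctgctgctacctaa
Acot1: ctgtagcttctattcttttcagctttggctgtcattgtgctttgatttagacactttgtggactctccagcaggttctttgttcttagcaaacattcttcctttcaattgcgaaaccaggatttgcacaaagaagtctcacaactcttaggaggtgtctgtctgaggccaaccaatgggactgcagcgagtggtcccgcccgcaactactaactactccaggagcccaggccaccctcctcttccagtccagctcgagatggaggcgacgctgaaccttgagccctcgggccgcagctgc
Acot2: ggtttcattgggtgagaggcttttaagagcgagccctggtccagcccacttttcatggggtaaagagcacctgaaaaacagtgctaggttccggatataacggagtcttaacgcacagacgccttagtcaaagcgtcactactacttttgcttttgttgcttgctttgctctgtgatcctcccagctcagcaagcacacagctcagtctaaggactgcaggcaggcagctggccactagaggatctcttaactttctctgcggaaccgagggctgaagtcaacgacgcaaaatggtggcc
The hexamer was found in 16.3% of the 32851 promoter windows. Ucp3 held it at 2 places, beginning 149 and 44 bases before the gene start, and a window of Rxra also held 2. The direct repeat AGGTCANAGGTCA was in 0.0396% of all windows and the looser AGGNCANAGGNCA in 0.381%, and neither was in a window of these 7 genes. A match describes these letters only, and the absence of one says nothing of sites elsewhere.

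Acot1 and Acot2 encode acyl-CoA thioesterases, which release free fatty acid and coenzyme A, Acot1 in the cytosol and Acot2 in mitochondria. They are neighbours on chromosome 12 of GRCm38, Acot2 from 83987861 to 83993877 and Acot1 from 84009502 to 84017670. Stretches of 50 bases that also occurred in Acot2 made up 23.7% of the longest coding transcript of Acot1 in GENCODE M21, and 24.5% of that of Acot2 occurred in Acot1. Counting all other genes, such stretches made up 33.6% for Acot1 and 27.7% for Acot2. With stretches of 100 bases, the shares with any other gene were 21.9% for Acot1 and 17.1% for Acot2. Reads that lie wholly within a shared stretch cannot be assigned to 1 gene by sequence. How they were counted is not given in the sources used here, so the values of both genes are uncertain. Reads of overlapping or antisense transcripts could likewise not be told apart, since the use of strand in counting is not given. The other 6 of the 8 genes shared 0% of such stretches with any other gene.

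The FPKM of Acot2 in replicates 1 to 4 was 14.2, 14.6, 14.2 and 13.7 for HFHG and 25.49, 24.5, 23.2 and 27.3 for LG. All HFHG values were below all LG values, and LG replicate 4 was the highest. The mean was 14.1 ± 0.393 FPKM in HFHG and 25.1 ± 1.75 in LG (SD, n = 4 each). Its log2 fold change by limma was -0.82 (adjusted p = 1.19e-08, standard error 0.0483), and -0.78 without LG replicate 4.

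The FPKM of Acot1 in replicates 1 to 4 was 0.790, 1.14, 1.05 and 1.19 for HFHG and 0.430, 0.919, 0.796 and 0.991 for LG. The groups overlapped, and LG replicate 1 was the lowest library. These values came from 23 to 68 reads per library. The log2 fold change by limma was 0.41 (adjusted p = 0.105, standard error 0.210), so no difference was called, but it was called with the replicate block (adjusted p = 0.0212 by limma). The estimate was about 0.5 times as large with a pseudocount of 1 and smaller with quantile normalization, and it was 0.18 without LG replicate 1 (adjusted p = 0.313 by limma) and 0.53 without LG replicate 4 (adjusted p = 0.0538 by limma). By FPKM, Acot2 made up 92.0% to 94.7% of the summed level of both genes in HFHG and 96.4% to 98.3% in LG.

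In the family of 12 acyl-CoA thioesterases, 9 were tested, of which 1 was called higher (over all tested genes 34.0%) and 3 lower (30.8%). With quantile normalization 6 were called lower, since Acot4, Acot6 and Acot11 were added. Acot13, the most abundant, fell from 83.1 ± 2.34 to 58.5 ± 1.53 FPKM (SD, n = 4 each) and had a limma estimate of -0.51 in log2 fold change (adjusted p = 1.08e-08). Acot9 fell from 45.3 ± 1.28 to 38.4 ± 1.35 FPKM, and Acot7 rose from 12.3 ± 0.573 to 14.5 ± 0.283 FPKM (SD, n = 4 each). Acot4, which neighbours Acot1, had 1.13 ± 0.163 FPKM in HFHG and 1.35 ± 0.176 in LG (SD, n = 4 each), with an adjusted p of 0.109 by limma, and it was also called lower without HFHG replicate 2 and without LG replicate 4. Acot8 was not called, and its estimate of 0.03 changed sign with median-ratio scaling, with quantile normalization and without HFHG replicate 2. Acot3, Acot5 and Acot12 were below the filter, with overlapping groups. Heatr4, on the other side of Acot2, was below the filter at 0.0496 ± 0.0295 and 0.0617 ± 0.0425 FPKM (SD, n = 4 each). Among 9 uncoupling proteins and related carriers, 5 were tested, of which 2 were called higher (over all tested genes 34.0%) and 2 lower (30.8%), and Ucp2 was the only one past 2-fold. Slc25a4, the most abundant, had 259.8 ± 3.27 FPKM in HFHG and 247 ± 7.12 in LG (SD, n = 4 each), a limma estimate of 0.07 in log2 fold change (adjusted p = 0.0202) that was not called with median-ratio scaling, with the replicate block, without HFHG replicate 1, without LG replicate 1 or without LG replicate 2. Slc25a30 was called lower, with a log2 fold change of -0.33, and Slc25a14 was not called. Below the filter, Slc25a27 had a mean of 0.247 FPKM in HFHG and 0.115 in LG without overlap, Slc25a31 overlapped between the groups, and Ucp1 was at or near 0. Slc25a5 fell from 127 ± 5.81 to 87.0 ± 2.20 FPKM (SD, n = 4 each) and had a limma estimate of -0.55 in log2 fold change (adjusted p = 1.79e-08).

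**Figure D2:**
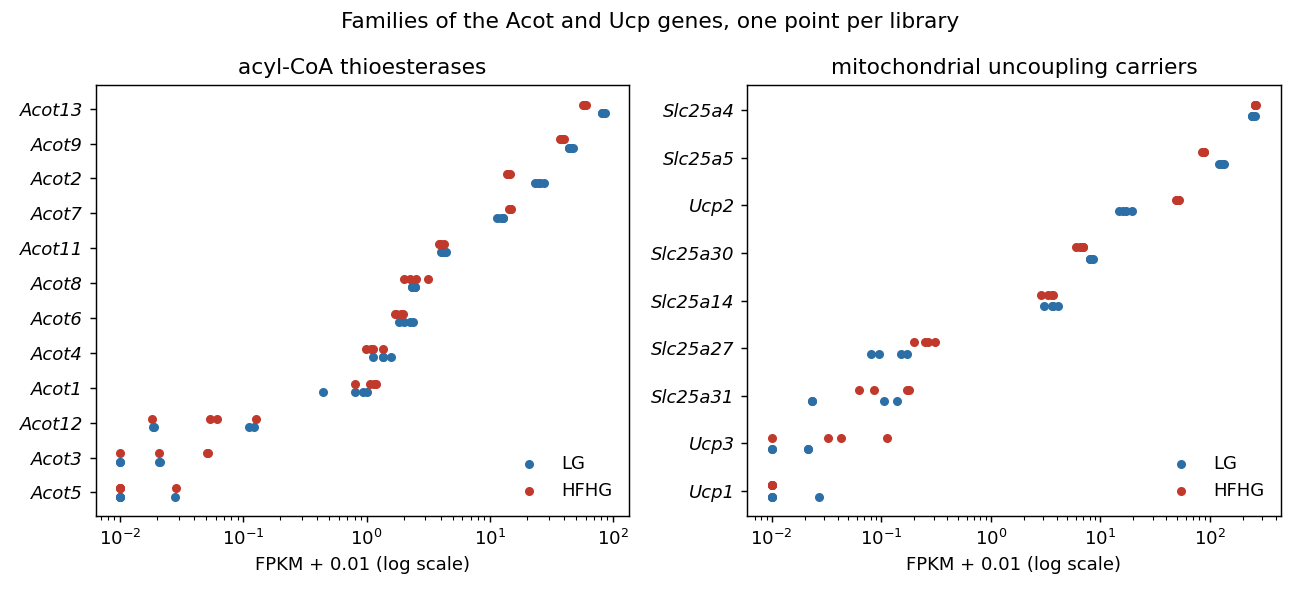
FPKM + 0.01 on log axes for the 12 acyl-CoA thioesterases and the 9 uncoupling proteins and related carriers, with 1 point per library. Acot1 and Ucp3 lie well below their neighbours Acot2 and Ucp2, and the LG and HFHG points of Acot2 and Ucp2 lie apart in opposite directions.

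Of the 40 other genes listed as PPAR targets, 32 were tested, 27 were called higher (over all tested genes 34.0%) and 2 lower (30.8%), and 7 were higher past 2-fold (3.68%). The median log2 fold change of the 32 was 0.48, against 0.02 for all tested genes. The list was chosen with earlier results of these data known, so this contrast is not an independent test. Pdk4, a kinase that inhibits pyruvate dehydrogenase, had the largest difference, with a limma estimate of 4.65 in log2 fold change (adjusted p = 2.25e-14). Cpt1a, which starts fatty acid import into mitochondria, rose from 20.2 ± 0.142 to 57.2 ± 1.57 FPKM (SD, n = 4 each) and had a limma estimate of 1.49 in log2 fold change (adjusted p = 5.34e-13). Fgf21, a secreted factor, had a limma estimate of 1.505 in log2 fold change (adjusted p = 0.0243), but its groups overlapped, and it was not called in 4 of the 8 fits that left out 1 library, nor without the filter or with quantile normalization. Its estimate was less than 0.5 times as large with a pseudocount of 1, larger with 0.01 and smaller without LG replicate 2. Plin2, a lipid droplet coat protein, was the most abundant, at 541 ± 7.91 FPKM in HFHG and 302 ± 6.47 in LG (SD, n = 4 each). The 2 that were called lower were Fabp3 and Tsku, named here after their values were seen, with log2 fold changes of -0.95 and -0.30.

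In the PPAR signaling pathway of the table's KEGG column, 82 genes were listed and 49 were tested, of which 29 were called higher (over all tested genes 34.0%) and 9 lower (30.8%), with a median log2 fold change of 0.26. This list contains 4 of the 8 genes and also many of the listed targets. Fabp4, a fatty acid binding protein, had 68.4 ± 3.03 FPKM in HFHG and 26.6 ± 2.61 in LG (SD, n = 4 each), with a limma estimate of 1.36 in log2 fold change (adjusted p = 8.26e-10). Of 13 coregulators, 11 were tested, 4 were called higher (over all tested genes 34.0%) and 1 lower (30.8%). The 1 lower was Hdac3, with a limma estimate of -0.10 in log2 fold change (adjusted p = 0.0398), which was not called in 6 of the 8 fits that left out 1 library, without the filter, with rescaling to the same sum, with quantile normalization or with the replicate block. Lpin1 rose from 2.87 ± 0.181 to 6.999 ± 0.249 FPKM (SD, n = 4 each) and had a limma estimate of 1.26 in log2 fold change (adjusted p = 2.22e-09). Nrip1 had a log2 fold change of 0.37. Of 18 other lipid-sensing and related nuclear receptors, 13 were tested, 7 were called higher (over all tested genes 34.0%) and 4 lower (30.8%), and the largest differences were log2 fold changes of -1.81 for Rarb, 1.496 for Vdr and -0.80 for Nr2f1. Nr1h2, the most abundant of them, was called lower at -0.11, with overlapping groups, and was not called with rescaling to the same sum.

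**Figure D3:**
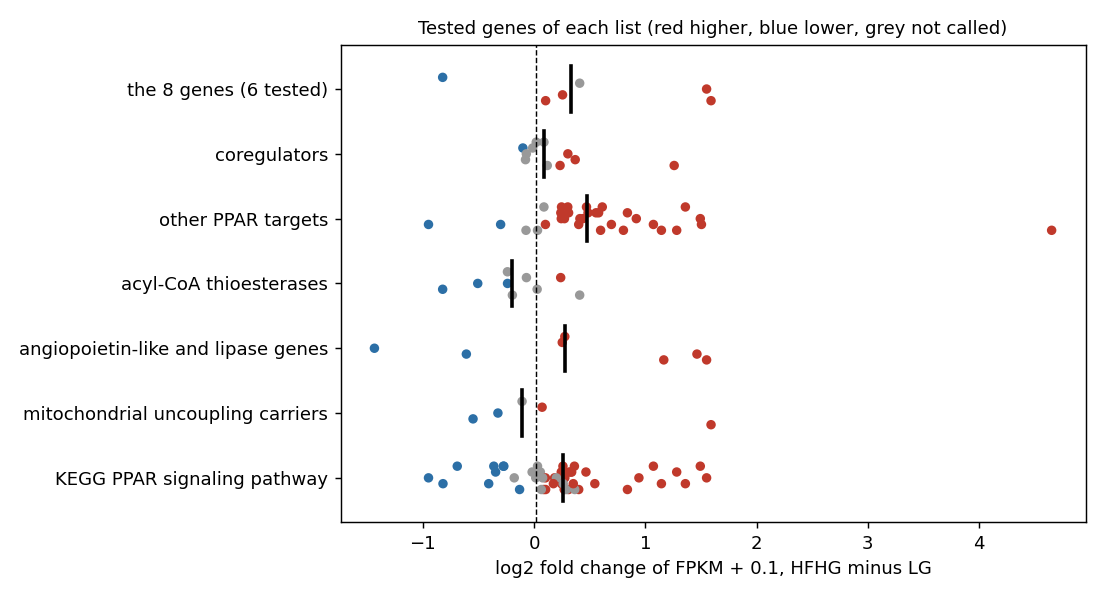
Log2 fold change (HFHG minus LG) of each tested gene in the listed groups, with red for called higher, blue for called lower and grey for not called. Black bars are the list medians and the dashed line is the median of all tested genes (0.02). The bar of the other PPAR targets is at 0.48 and that of the acyl-CoA thioesterases at -0.20.

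**Figure D4:**
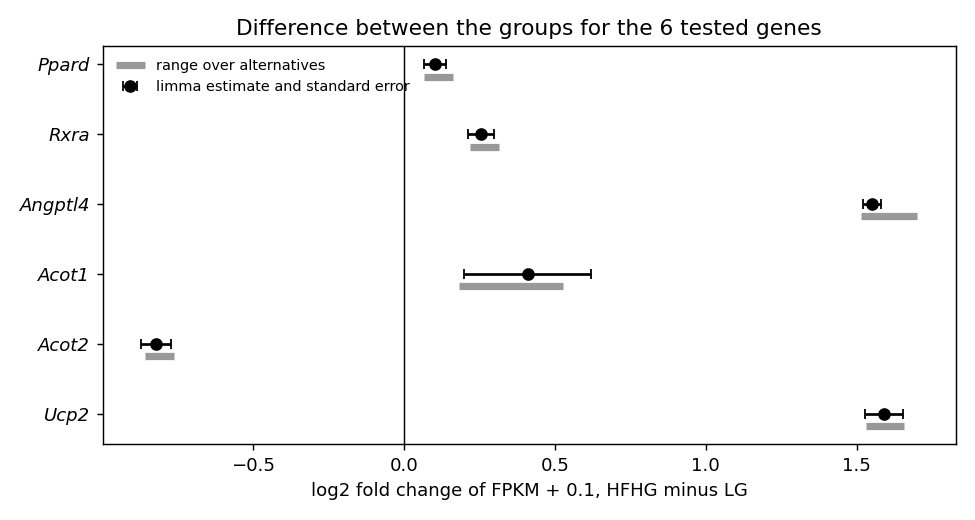
Log2 fold change (horizontal axis, HFHG minus LG) of the 6 tested genes with its standard error in black, and in grey the range over the alternatives. Angptl4 stays between 1.51 and 1.70, Ucp2 between 1.53 and 1.66, and Acot2 between -0.86 and -0.76.

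The profiles of other genes were compared with those of Ucp2 and Acot2 by Euclidean distance between centred log2(FPKM + 0.1) values over the 8 libraries. Among 11704 genes, which leave out the 6 tested genes of the 8, the nearest to Ucp2 were Col6a1 (distance 0.199), Sod3 (0.210) and Tgfb3 (0.218). The distance of Angptl4, which was among those left out, was 0.217. The nearest to Acot2 were Nr2c2ap (0.105), Car9 (0.114) and Nkain1 (0.121).

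The cells were compared with markers of tendon and of other cell types. In bulk RNA, fewer cells of a type and less RNA per cell cannot be told apart. Of 12 tendon markers, 12 were tested, and their summed FPKM in replicates 1 to 4 was 4182, 4233, 4187 and 4212 for HFHG and 3027, 3032, 3015 and 3062 for LG. The most abundant was Bgn, and none was at 0 in any library. The largest differences were log2 fold changes of 1.36 for Col1a1, 1.14 for Thbs4 and 1.06 for Tnc. Of the 12, 8 were called higher (over all tested genes 34.0%), 2 lower (30.8%) and 2 were not called. The transcription factor genes Mkx and Egr1 were the 2 lower, without overlap between the groups, with log2 fold changes of -0.35 and -0.40. Scx, a transcription factor of tendon, was called higher, with 1.53 to 2.88 FPKM in HFHG and 0.983 to 1.76 in LG, which overlap. Tnmd was also called higher, with 1.01 to 1.19 FPKM in HFHG and 0.220 to 0.916 in LG, from 10 to 59 reads per library. By qPCR the study reported the opposite direction for Scx and Tnmd in HFHG medium, and no significant change of Mkx. Without Bgn, the sum of the others was 2502 to 2554 in HFHG and 1626 to 1659.9 in LG.

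Of 14 tested macrophage markers, 11 were called lower in HFHG (over all tested genes 30.8%) and 2 higher (34.0%). The 2 higher were Cd14, without overlap, and Aif1, with overlapping groups, with log2 fold changes of 0.26 and 0.33. For the 15 listed, the summed FPKM in replicates 1 to 4 was 1884, 1858, 1851 and 1837 for HFHG and 2035, 2055, 2078 and 2129.8 for LG, mostly from Lyz2. Lyz2 was among the 11 called lower, but with quantile normalization it changed sign and was not called. Without Lyz2 the sum was 218 to 222 in HFHG and 299 to 319 in LG. C1qa, Mrc1 and C1qc had the largest differences, with log2 fold changes of -0.97, -0.86 and -0.78. None of them was at 0 in any library, and Cd163 was below 0.5 FPKM throughout. The summed FPKM of 10 adipocyte markers was 254, 248, 250.5 and 254 for HFHG replicates 1 to 4 and 172, 182, 178 and 173 for LG replicates 1 to 4, mostly from Lpl. Without Lpl that sum was 70.8 to 77.3 in HFHG and 25.3 to 31.2 in LG, nearly all of it from Fabp4, which is also among the listed PPAR targets. Lipe, the other tested gene of this list, had a log2 fold change of 1.38. Of these 10, 7 were below 0.5 FPKM in every library, among them Adipoq, Lep and Plin1, and Adipoq, Cidea, Retn and Pparg had lower means in HFHG with overlapping groups. The summed FPKM of 12 skeletal muscle markers was 1.54 to 3.10 in HFHG and 4.33 to 5.01 in LG, with Acta1 the most abundant. Without Acta1 the muscle sums overlapped, at 0.933 to 2.17 in HFHG and 1.11 to 1.39 in LG, with Tnnt3 higher in HFHG without overlap, at a mean of 0.571 against 0.116 FPKM, and Chrna1 lower without overlap, at 0.182 against 0.505. For 7 endothelial markers the summed FPKM was 1.66 to 1.78 in HFHG and 1.88 to 2.23 in LG. The most abundant was Vwf in LG (mean 1.04 FPKM) and Tek in HFHG (mean 0.80 FPKM). Without Vwf the endothelial sum was higher in HFHG, at 1.26 to 1.38 against 0.955 to 1.18 in LG. Tek was called higher with a limma estimate of 0.47 in log2 fold change (adjusted p = 0.00576). Vwf was called lower with a limma estimate of -1.20 in log2 fold change (adjusted p = 1.79e-06). It had 0.358 to 0.418 FPKM in HFHG and 0.925 to 1.09 in LG. It passed the filter only through LG, so it could be called only as a fall. Myod1 and Pax7 of the muscle list and Pecam1 and Cdh5 of the endothelial list were below 0.5 FPKM in every library. The part of these cell types in the differences of Angptl4, Ucp2 and Acot2 was not tested.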

How the data were processed

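The authors deposited FPKM for 19301 genes in 8 libraries, made with a stranded mRNA kit. The submitters' processing notes name HISAT2 2.1.0 and mm10; the counting program and its use of strand are not given in the sources used here. Groups came from the sample labels, and the doses (HFHG with 25.5 mM glucose) from the study's text. Columns not used numbered 0. The 8 genes and all lists were chosen with earlier results of these data known.

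Reads were recovered as whole numbers for 19301 of 19301 genes (relative tolerance 1e-06) and accounted for 99.8% of the library totals. The recovery was tested on simulated data. It first returned a fraction of the simulated totals there and was corrected, which left the reads and totals of these libraries as they were. limma 3.58.1 in R 4.3.3 (lmFit, eBayes with trend) was fitted to log2(FPKM + 0.1) of 11710 genes with Benjamini-Hochberg adjustment. Genes below the filter were compared by exact two-sided permutation over 70 arrangements, with a smallest p of 0.0286. Python 3.11.15 and scipy 1.17.1 were used for the rest.

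Named genes were the 8 genes, the receptor family, the 3 largest called differences and the most abundant gene of each list, the families of Acot and Ucp, the 3 nearest profiles and the chromosomal neighbours. Fabp3, Tsku, Scx, Mkx, Egr1, Tnnt3 and the markers near 0 were named outside this rule, and 1 gene that it names is not reported here. The alternatives were pseudocounts of 1 and 0.01, no filter, a minimum of 1 FPKM, 3 scalings, a replicate block, robust eBayes, limma-voom on the recovered reads and each library left out.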

Additional observations from a re-analysis of the deposited data

Results flagged for a closer look

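In groups of 4 libraries, a value was singled out where its gap to the nearest other value exceeded Dixon's 95% critical value as a share of the range of the group. This happened in 11 of 142 groups, and chance gives about 1 in 20. The groups of Acot5 and Ucp1 among the 11 held 1 read in 1 library and 0 in the others. Their gap was fixed by this, so the rate of 1 in 20 does not apply to them. LG replicate 4 was the library in 4 of the 11. It was high for Angptl4 (95.6 FPKM against 87.7 to 88.7 in the other LG libraries, a gap of 0.869 of the range), Bgn (1436 against 1372 to 1379, 0.895), Car9 (34.5 against 30.3 to 31.0, 0.841) and Nkain1 (32.3 against 29.9 to 30.04, 0.932). Car9 and Nkain1 were chosen for profiles near that of Acot2, in which LG replicate 4 was also the highest LG library. Their high values in LG replicate 4 were therefore not independent of that choice. HFHG replicate 1 was high for Angptl4 (267 FPKM against 263 in the others, 0.873). LG replicate 3 was high for Rxra (21.9 FPKM against 20.02 to 20.3, 0.869) and Cpt1a (20.5 against 20.2, 0.888). HFHG replicate 3 was low for Nr2c2ap (11.1 FPKM against 11.7, 0.897). Acot5 was above 0 in replicate 2 of HFHG and of LG alone, and Ucp1 in LG replicate 3 alone, so each of these gaps was the whole range (a gap of 1 for each).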

How the results depend on the processing

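Angptl4, Rxra, Ucp2 and Acot2 kept their direction and their call in 18 of 18 alternatives. Ppard kept its direction in 18 and its call in 13. Acot1 was called in 1 of the 17 alternatives that tested it. With a pseudocount of 1, 197 genes were higher and 106 lower past 2-fold, against 431 and 193. With rescaling to the same sum, 60.9% of the called genes were higher, with median-ratio scaling 46.7% and with quantile normalization 47.3%, against 52.5%, and no scaling moved the median log2 fold change by more than 0.06.

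No pairing of the libraries by replicate number was seen. The correlation of deviations between same-numbered libraries was -0.0736 to -0.00558, and 0 of 8 libraries correlated best with their own number. With 4 pairs, this check cannot exclude that same-numbered libraries were paired. With the replicate block, 7342 genes were called against 7592, and 5 of the 8 genes were called higher in place of 4, since Acot1 passed (adjusted p = 0.0212 by limma).

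The exact p of Ppara ranged from 0.229 to 0.971 when 1 library was left out, and its difference changed sign without LG replicate 1 (exact p = 0.971) and without LG replicate 2 (exact p = 0.886). The exact p of Ucp3 ranged from 0.0286 to 0.371, the lowest without HFHG replicate 2. The exact test was run under 2 of the scalings and the fits without 1 library only, and Acot1 has no value at a minimum of 1 FPKM. The log2 fold change of Acot8 changed sign with median-ratio scaling (-0.0080) and quantile normalization (-0.0872), and it ran from -0.0853 to 0.1177 when 1 library was left out, negative without HFHG replicate 2. With quantile normalization Lyz2 (0.0062) and C2cd3 (-0.0727) also changed sign, and none of these was called there. The cause was not tested. Reads limit what can be said of Ppara, Ucp3 and Acot1.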
